A study of Mus musculus with 6 samples.

Results

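The 10 genes described here encode the AP-1 and EGR immediate early transcription factors: 4 FOS genes (Fos, Fosb, Fosl1, Fosl2), 3 JUN genes (Jun, Junb, Jund) and 3 EGR genes (Egr1, Egr2, Egr3). They were taken by symbol from a table of 56792 gene rows, in which each has 1 row, and all 10 had enough counts for the test over 14989 rows. The study sequenced RNA from C2C12, a wild-type mouse cell line that grows as myoblasts and forms multinucleated myotubes once serum is reduced. The 2 groups of cells, with 3 libraries each, were held in 2% horse serum and had differentiated for 4 days; one group received no lenvatinib and the other received it at 1 µM. Lenvatinib is a cancer drug that blocks several receptor tyrosine kinases, among them receptors for vascular endothelial growth factor, fibroblast growth factor and platelet-derived growth factor. All values therefore come from 1 cell line under a differentiation medium common to both groups. The labels do not say when the drug was added, whether untreated cells received its solvent, or whether the replicates were separate cultures, so p-values reflect only how far these libraries spread, and that spread may be technical.

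AP-1 is a dimer of basic leucine zipper proteins. JUN proteins pair with one another or with FOS proteins, FOS proteins need a JUN partner, and the pairs differ in how strongly they activate transcription, with Jun a strong activator and Junb and Jund weaker ones in many settings. EGR proteins are zinc finger factors that bind GC-rich sites and are held in check by the NAB co-repressors. Growth factor receptors induce many of these genes within minutes through ERK and related kinases, which act on serum response factor (SRF) and its ternary complex partners at the promoter; Jund is the member expressed most steadily. In muscle, high AP-1 activity is known from proliferating myoblasts, Egr3 from the muscle spindle, and Egr1 from matrix and tendon gene control.

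Jun and Junb are JUN genes whose transcripts moved in opposite directions, and their promoters are shown for that reason. The sequences are from RefSeq on build GRCm38.p6, 250 bases ending just before the transcription start, read in the direction of transcription; 7 of the 10 members had an entry. Capitals mark a CCAAT box in both and, in Jun only, the letters TGACATCA, known as a Jun/ATF2 element, and a match to the MEF2 element, CTATTTTTAG.
Jun, chr4:95052223-95052472, minus strand: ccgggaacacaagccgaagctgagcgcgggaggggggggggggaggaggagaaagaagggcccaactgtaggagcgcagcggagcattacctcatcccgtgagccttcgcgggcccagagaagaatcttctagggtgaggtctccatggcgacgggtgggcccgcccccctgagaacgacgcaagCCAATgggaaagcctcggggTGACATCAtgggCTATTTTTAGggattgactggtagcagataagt
Junb, chr8:84978749-84978998, minus strand: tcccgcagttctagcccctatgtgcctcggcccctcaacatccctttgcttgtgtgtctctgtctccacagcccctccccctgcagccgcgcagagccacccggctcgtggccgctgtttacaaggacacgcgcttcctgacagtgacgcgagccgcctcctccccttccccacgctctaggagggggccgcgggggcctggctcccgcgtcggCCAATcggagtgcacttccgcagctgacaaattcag
The third sequence is a 30-base stretch around a match to the CArG box, the SRF element, with the box in capitals. It lies before several alternative starts of Egr2, the EGR member with the largest change, and after the other Egr2 starts.
Egr2, chr10:67537787-67537816, plus strand: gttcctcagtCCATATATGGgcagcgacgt
In Jun, TGACATCA lies 38 to 45 bases and CTATTTTTAG 24 to 33 bases before the start, and the CCAAT box 61 to 65 bases before it. Among 32851 windows of the same length, on either strand, 2.93% hold TGACATCA, 2.92% hold a MEF2 element and 33.8% hold CCAAT; these 3 motifs were chosen after the sequences were read and do not overlap one another. The CArG box is present in 1.47% of the windows, and the box printed for Egr2 lies in the overlapping windows of 3 alternative starts. A different match, CCTTTTTTGG, lies in the window of another Egr2 start further upstream, which does not overlap those. The canonical AP-1 letters TGANTCA (6.75% of windows) and the cyclic AMP element TGACGTCA (1.55%) were in none of the 7 members' windows. Of the EGR sites, GCGGGGGCG (2.57% of windows) was in the windows of Fosb and Fosl2 and GCGTGGGCG (0.536%) in none. All 250 bases of the Fosl2 window lie within an annotated exon of that gene. The ETS core CCGGAA (12% of windows) was found only at 1 of the Egr2 starts. A match describes letters in this window and not binding, and elements further upstream were not searched.

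With lenvatinib 2 members rose, Jun and Jund, and 3 fell, Junb, Egr2 and Egr3, at an adjusted p under 0.05. Fos, Fosb, Fosl1, Fosl2 and Egr1 did not pass. Over all tested rows 28.2% were called, 13.3% as higher and 14.9% as lower, against 5 of 10 members, 2 higher and 3 lower; rows with many counts were called more often, 40.4% of those with a mean of at least 50 CPM, and 4 of the 6 members at that level were called. The groups did not overlap in 7 members, 2 higher and 5 lower, where 40.1% of all rows did not overlap, 19.6% higher and 20.5% lower. The median log2 fold change of the 10 was -0.10, and that of all tested rows 0.00. Values are CPM, a gene's counts scaled to its library's total with TMM factors, given as mean ± SD over n = 3; log2 fold changes set lenvatinib against untreated and carry the SE of edgeR's quasi-likelihood fit. RNA from a whole culture cannot tell fewer cells of a type from less RNA per cell.

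**Figure D1:**
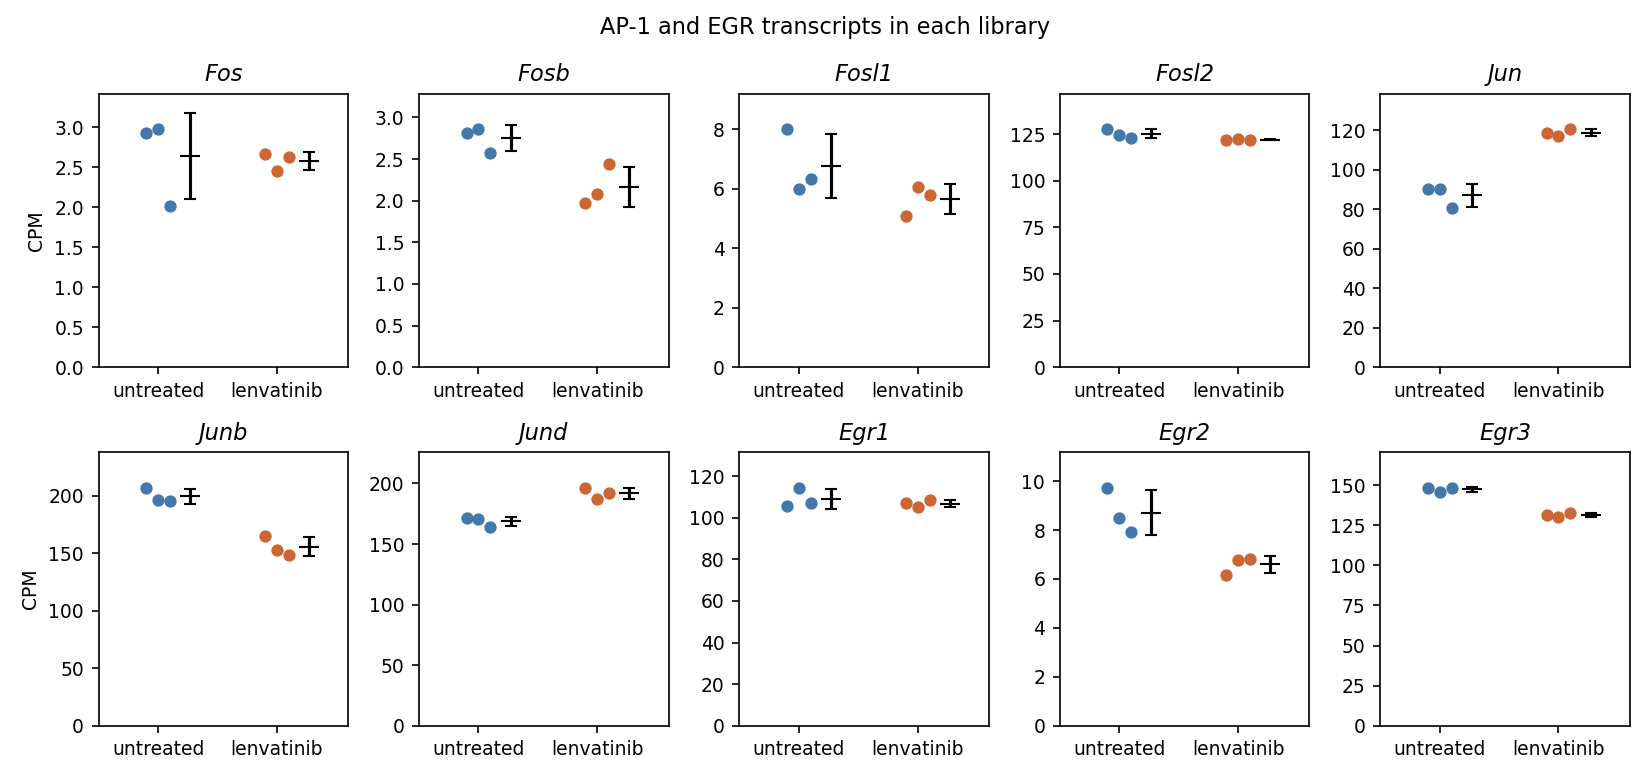
CPM of each of the 10 genes (vertical axes, linear and starting at 0, each with its own scale) in the 3 untreated and 3 lenvatinib libraries (points), with mean and SD beside them. Jun and Jund sit higher in all lenvatinib libraries, Junb, Egr2 and Egr3 lower, and the points of Fos, Fosl1 and Egr1 overlap between groups.

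The JUN genes, which supply the partner that every AP-1 dimer of these families needs, all changed, and not in the same direction. Jun (ENSMUSG00000052684, chromosome 4, 94937271 to 94940459 as deposited, minus strand) was at 90.2, 90.5 and 80.5 CPM in untreated libraries 1, 2 and 3 and at 119, 117 and 121 CPM in lenvatinib libraries 1, 2 and 3. The lowest lenvatinib library was above the highest untreated one, and the untreated libraries were the more spread. Jun rose from 87.1 ± 5.67 to 119 ± 1.69 CPM, 1.37-fold (0.45 ± 0.04, adjusted p = 3.82e-12). Its span shares 689 bases with the span of Junos, a noncoding gene on the opposite strand. Spans run from the start to the end of a row, introns included. Junos had 13 to 31 counts per library and was itself lower with lenvatinib (1.01 and 0.541 CPM, adjusted p = 0.027).

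Junb (ENSMUSG00000052837, chromosome 8, 85701113 to 85705347, minus strand), which can oppose Jun at AP-1 sites, was at 207, 196 and 196 CPM in the untreated libraries. In the lenvatinib libraries it was at 165, 153 and 149 CPM. All 3 treated libraries lay below all untreated ones. The mean of Junb fell from 199.5 ± 6.41 to 156 ± 8.43 CPM, a 1.28-fold decrease (-0.36 ± 0.03, adjusted p = 2.72e-10). The end of its span overlaps 351 bases of the span of Prdx2, an abundant peroxiredoxin gene on the opposite strand. Prdx2 was at 316 and 308 CPM and did not pass (adjusted p = 0.35).

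Jund (ENSMUSG00000071076, chromosome 8, 71151599 to 71153265, plus strand), often described as the JUN member of resting cells, was at 171, 170.5 and 164 CPM without lenvatinib. With it the values were 196.5, 187 and 192 CPM. The groups again did not overlap. Jund rose from 169 ± 3.93 to 192 ± 4.83 CPM, 1.14-fold (0.19 ± 0.03, adjusted p = 4.1e-06). A predicted gene, Gm11175, lies within its span on the opposite strand with 22 to 48 counts.

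A ratio within a library does not depend on how libraries are scaled. There were 0.436, 0.462 and 0.412 Jun counts per Junb count in the untreated libraries and 0.719, 0.767 and 0.811 in the lenvatinib libraries. The log2 ratio moved from -1.20 ± 0.08 to -0.39 ± 0.09 (SD, n = 3), a difference of 0.81. The ratio of Jund to Junb counts was 0.828 to 0.870 untreated and 1.19 to 1.29 with lenvatinib, so Jund had fewer counts than Junb in each untreated library and more in each treated one. An exact two-sided permutation test gave p = 0.1 for Jun against Junb, the smallest that 3 against 3 libraries allow, and the same for the other 4 ratios computed (0.1 also after adjustment over the 5); the pair was chosen with both directions known.

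**Figure D2:**
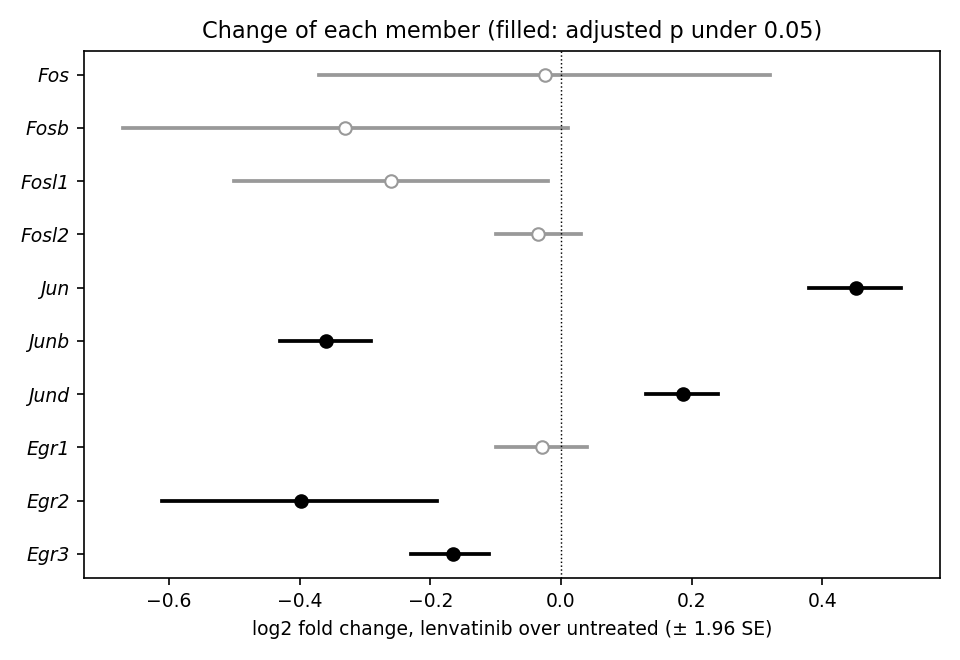
Log2 fold change of each gene (points) with ± 1.96 SE (lines); filled points passed an adjusted p of 0.05. Jun and Jund lie to the right of 0, Junb, Egr2 and Egr3 to the left, and the lines of Fos and Fosb are the longest.

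FOS transcripts, which encode the partners that cannot pair with themselves, were mostly scarce, and none of the 4 passed the test. Fosl2 (ENSMUSG00000029135), which encodes Fra-2, was the abundant one. It was at 128, 124.5 and 123 CPM untreated and 122, 122 and 122 CPM with lenvatinib (125 ± 2.36 and 122 ± 0.434). The lenvatinib values all lay just below the untreated ones, but the log2 difference was -0.035 ± 0.03 with an interval (± 1.96 SE) of -0.10 to 0.03 (adjusted p = 0.453).

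Fosl1 (ENSMUSG00000024912), which encodes Fra-1, a target of AP-1 itself and of sustained ERK signaling, was at 8.004, 5.99 and 6.32 CPM untreated and 5.09, 6.05 and 5.80 CPM with lenvatinib. The groups overlapped, and the first untreated library was the highest. The log2 difference was -0.26 ± 0.12, with an interval of -0.50 to -0.02; the unadjusted p was 0.0371 and the adjusted p 0.107. Without the first untreated library the difference was -0.124 (adjusted p = 0.556). The span of Fosl1 shares 2767 bases, introns included, with the span of Ccdc85b on the opposite strand (10.5 and 11.03 CPM). Fosl1 has a feature length of 2033 bases in a span of 8400, and the overlap of counted bases was not computed. Without a known strand setting, reads from bases counted for both genes cannot be assigned to one of them.

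Fos itself (ENSMUSG00000021250), the prototype of a serum-induced gene, had 58 to 78 counts in the untreated and 60 to 85 in the lenvatinib libraries. This was 2.93, 2.98 and 2.02 CPM against 2.67, 2.45 and 2.62 CPM. The treated values lay inside the untreated range, and the interval of the log2 difference was -0.37 to 0.32 (adjusted p = 0.942). Changes within those bounds are compatible with these counts. Fosb (ENSMUSG00000003545), a close relative of Fos, was at 2.82, 2.86 and 2.57 CPM and at 1.98, 2.09 and 2.44 CPM. Its groups did not overlap, yet with 49 to 79 counts per library the difference of -0.33 ± 0.18 did not pass (interval -0.67 to 0.01, adjusted p = 0.169).

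EGR transcripts differed by member. Egr1 (ENSMUSG00000038418), the member most used as a marker of ERK activity, was at 106, 114.5 and 107 CPM untreated and 107, 105 and 108 CPM with lenvatinib. The groups overlapped. The log2 difference was -0.029 ± 0.04 with an interval of -0.10 to 0.04 (adjusted p = 0.597).

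Egr3 (ENSMUSG00000033730, chromosome 14, 70314652 to 70320063, plus strand), known from muscle spindle formation, was at 148.5, 146 and 148 CPM untreated. It was at 132, 130.3 and 132 CPM with lenvatinib. Replicates differed little, and the groups stood apart. Egr3 fell from 147 ± 1.49 to 131.5 ± 1.05 CPM, a 1.12-fold decrease (-0.165 ± 0.03, adjusted p = 3.79e-05).

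Egr2 (ENSMUSG00000037868, chromosome 10, 67371305 to 67378018, plus strand), known for its role in Schwann cell myelination, was the scarce EGR gene, with 153 to 259 counts per library. It was at 9.73, 8.50 and 7.92 CPM untreated and 6.18, 6.79 and 6.82 CPM with lenvatinib. All treated libraries were below all untreated ones. Egr2 fell from 8.72 ± 0.926 to 6.60 ± 0.363 CPM, a 1.32-fold decrease (-0.40 ± 0.11, adjusted p = 0.0033).

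Levels of different genes were compared per kilobase of the deposited feature length. In untreated cells the order of mean CPM per kilobase was Jund (101), Junb (86.7), Egr3 (33.5), Jun (27.3), Egr1 (24.3), Fosl2 (12.2), Fosl1 (3.33), Egr2 (2.57), Fos (1.12) and Fosb (0.440). Among neighbours in this order only the ranges of Jun and Egr1 overlapped, at 25.3 to 28.4 and 23.5 to 25.5 CPM per kilobase. With lenvatinib Jun stood at 37.3 ± 0.528 and Egr3 at 29.8 ± 0.239 CPM per kilobase, so these genes changed places; the other places were as before, and no neighbours overlapped. Levels per length depend on the feature length, which for Fosl2 is 10256 bases and for Jund 1667.

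The FOS and JUN transcripts summed to 232 ± 6.99 CPM per kilobase untreated and 236 ± 5.81 with lenvatinib, a difference within the spread between replicates. Their make-up differed. Jund made 43.6 ± 0.502% of the sum untreated and 48.7 ± 0.445% with lenvatinib, Jun 11.8 ± 0.497% and 15.8 ± 0.425%, and Junb 37.3 ± 0.622% and 28.6 ± 0.957%. The 4 FOS genes held small shares, with Fosl2 at 5.25 ± 0.0673% and 5.04 ± 0.134% Fosl1 at 1.43 ± 0.195% and 1.18 ± 0.132%, Fos at 0.482% and 0.465%, and Fosb at 0.190% and 0.147%. The 3 EGR genes summed to 60.3 ± 0.682 and 55.6 ± 0.612 CPM per kilobase. Shares of transcripts are not shares of protein.

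**Figure D3:**
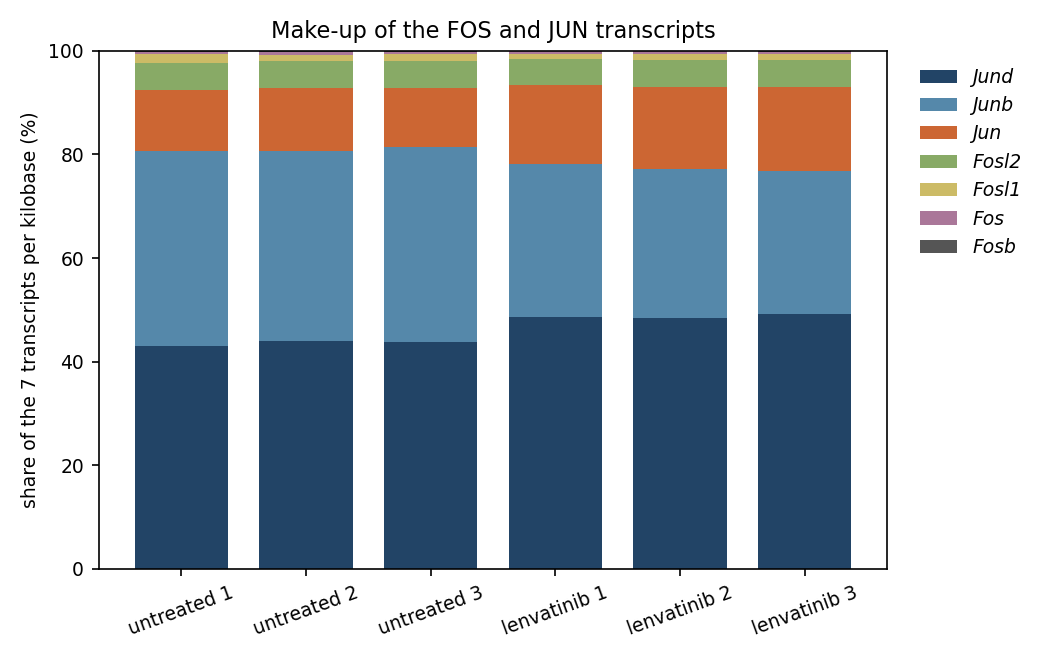
Share of each FOS and JUN gene in the summed CPM per kilobase of the 7 (vertical axis, percent) in each library. The Junb band is 36.6 to 37.8% in the untreated and 27.7 to 29.6% in the lenvatinib libraries, and the Jun and Jund bands are wider in the latter.

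Other immediate early genes did not share 1 direction. Of 22 tested of 24, 8 rose, 3 fell and 11 did not pass, with a median of 0.07. Among all tested rows 28.2% were called, 13.3% as higher and 14.9% as lower. The most abundant were Rhob, a small GTPase gene (531 ± 3.12 to 584 ± 2.44 CPM), and the matricellular genes Ccn1 (0.87 ± 0.03, to 458 ± 5.62 CPM) and Ccn2 (184 ± 14.1 to 439 ± 3.12 CPM), all of which rose. By p-value the leading members were Ccn1, the Krüppel-like factor Klf2 (0.73 ± 0.06), the growth arrest gene Gadd45b (0.51 ± 0.05), all higher, and the orphan nuclear receptor Nr4a2, which fell from 9.93 ± 0.521 to 4.37 ± 0.481 CPM (-1.17 ± 0.11). The other fallen genes were Myc (-0.24) and Nr4a1 (-0.23), named because only 3 fell, after their values were seen. Egr4, the remaining EGR gene, had 0 counts in all libraries, where 3 counts correspond to 0.0926 to 0.123 CPM.

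Partners and regulators of AP-1 were examined next. Of 10 tested bZIP genes of 15, 3 rose and 3 fell, where 28.2% of all tested rows were called. Jdp2, a repressor that pairs with JUN, rose from 87.9 ± 3.96 to 113 ± 2.70 CPM (0.36 ± 0.04, adjusted p = 8.2e-11), Creb5 by 0.78 and Mafa by 0.25, while Maf fell by 0.26. Nfe2l1, the most abundant of the list at 825 ± 2.00 and 801 ± 10.4 CPM, did not pass, and Nfe2l2, the NRF2 gene, fell by 0.09. Atf2, a partner of Jun, also fell (-0.17); it is named after its value was seen. Without the third lenvatinib library 1 bZIP gene was called lower, and 2 were with DESeq2 or a threshold of 0.01. Of 9 genes for enzymes and cofactors that act on AP-1 proteins none rose and 2 fell: Fbxw7, a ubiquitin ligase subunit for JUN, from 76.4 ± 2.38 to 66.3 ± 2.06 CPM, and Bcl3 (-1.17 ± 0.23), at 2.45 and 1.11 CPM. Gsk3b, Cops5 and Usp28, the most abundant there, did not pass.

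On the EGR side, 3 of 4 tested co-repressor and related genes fell and none rose, where 14.9% of all tested rows were called lower. The fallen genes had means above 50 CPM, and 40.4% of rows at that level were called in either direction. With DESeq2, no filter, a threshold of 0.01 or without the first untreated library, 2 genes of this list were called lower. Nab2, the EGR co-repressor that EGR proteins also induce, fell from 127 ± 4.19 to 110.2 ± 1.93 CPM (-0.205 ± 0.03, adjusted p = 4.51e-06). Sp1 and Sp3, GC-box factors, fell by 0.21 and 0.12 on the log2 scale. Nab1 was at 45.6 ± 0.907 and 43.3 ± 2.10 CPM and did not pass.

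Of 23 tested kinases and SRF cofactors upstream, 3 rose, 2 fell and 18 did not pass, where 28.2% of all tested rows were called. The median was 0.04, and between -0.008 (without the third untreated library) and 0.045 when 1 library was left out; it was 0.011 without the first untreated and 0.014 without the second lenvatinib library, so it gives no direction. Elk4, a ternary complex factor that binds beside SRF, fell from 103 ± 2.07 to 81.7 ± 1.73 CPM (-0.33 ± 0.04, adjusted p = 3.05e-10), and Mapk3, which encodes ERK1, fell by 0.24. Mapk14, which encodes p38 alpha, rose by 0.34 and Mapk8, which encodes the JUN kinase JNK1, by 0.17. Map2k2, an abundant member of the list, did not pass, and Srf was at 89.3 ± 3.01 and 94.0 ± 1.56 CPM (adjusted p = 0.111). These are transcript levels and say nothing of kinase activity.

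Textbook target genes went both ways. Of 20 tested AP-1 targets of 26, 9 rose and 5 fell, with a median of 0.12. For comparison, 28.2% of all tested rows were called, and 40.4% of those with a mean of at least 50 CPM. The EGF family ligand gene Hbegf rose from 29.0 ± 1.03 to 48.5 ± 1.28 CPM (0.74 ± 0.05), the hyaluronan receptor gene Cd44 by 0.26 and Mmp2 by 0.12. Osteopontin, Spp1, fell by 1.92 and Timp1 by 0.43 on the log2 scale. Mmp3, Mmp9, Mmp10 and Mmp13, metalloproteinase genes often used as AP-1 reporters, had too few counts for a test. Of 13 tested EGR targets of 14, 5 rose and 6 fell, with a median of -0.08 (-0.035 without the third lenvatinib library). Pdgfb rose by 0.48 and Gdf15 by 0.92, Nab2 fell as above, and Thbs1, the most abundant, fell by 0.31. Each of these genes has further regulators, and neither list was tested as a set.

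**Figure D4:**
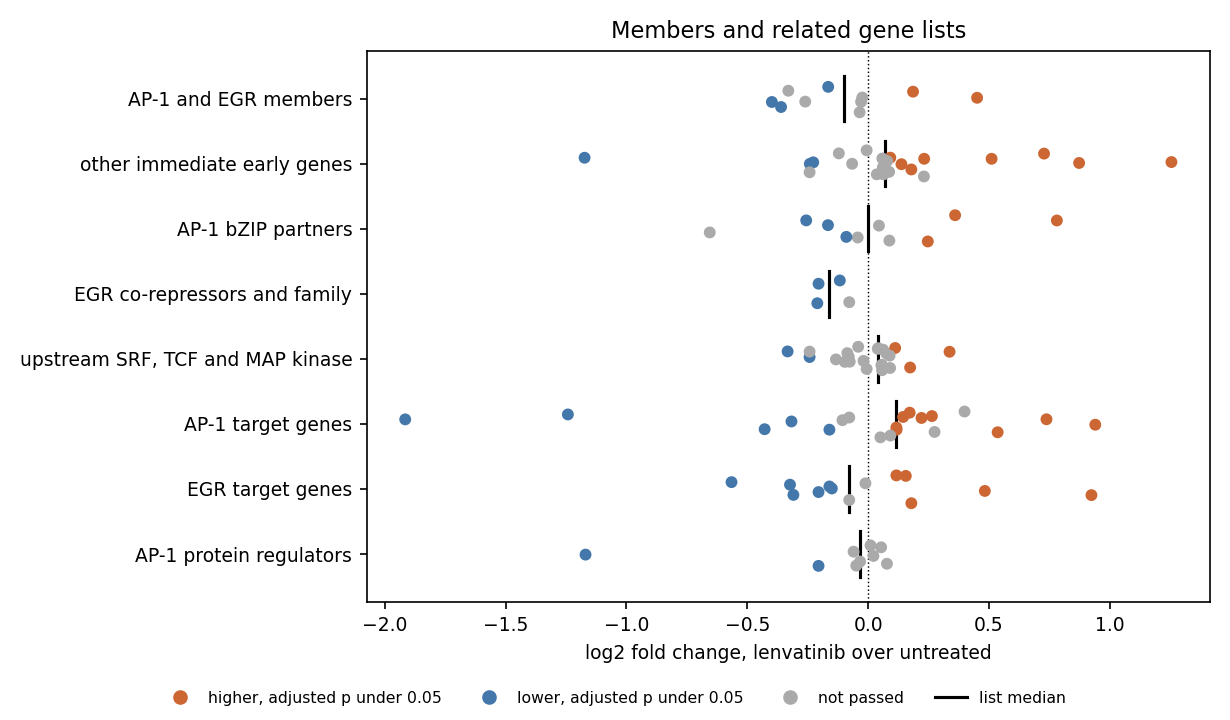
Log2 fold change of every tested gene (points, spread vertically only for legibility) in the 10 members and 7 related lists, with list medians as black bars. Each list except the EGR co-repressors and the AP-1 protein regulators, in which no gene rose, holds both called increases and called decreases.

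The genes whose pattern was most like each called member were sought among 9838 other named rows of at least 5 CPM, by Pearson's r of log2 CPM over the 6 libraries. With 2 groups of 3 such r values mostly follow the group difference, and they are given as a description. Nearest to Jun were Ccne1, Igfbp2 and Tmtc4 (r = 0.999, 0.998 and 0.998). Nearest to Junb were Nrp1, Asnsd1 and Nmnat2 (0.999, 0.998 and 0.998). Nearest to Jund were Abhd8, Dck and Zgpat (0.997, 0.996 and 0.996). Egr2 was most like Lzts2, Ubap2l and Mrc2 (0.998, 0.990 and 0.989), and Egr3 most like Gvin2, Rhod and Arhgap24 (0.999, 0.998 and 0.998). None of these 15 genes is in the lists above.

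Library totals were 24566768 to 32406563 counts, the lowest and the highest both in the lenvatinib group. The fit called 4229 rows, 28.2% of those tested. Muscle markers were present in both groups: all 12 were tested, with a summed level of 17411 to 17994 CPM untreated and 17964 to 18090 CPM with lenvatinib, 6 higher and 3 lower. Of 8 fibroblast markers, several of which muscle cells also express, 4 rose and 2 fell, and their sum was 2086 to 2204 CPM untreated and 2529 to 2715 CPM treated; its part in the results on the members was not tested. Markers of macrophages (8 genes, 1.68 to 3.11 CPM in sum, Adgre1 at 0) and endothelium (8 genes, 2.62 to 3.38 CPM, Emcn at 0) were near 0 in every library. The adipocyte list summed to 5.21 to 5.94 CPM, nearly all Pparg, with Plin1 at 0. Of the osteoblast and chondrocyte list Runx2 fell by 0.26, and Ibsp and Acan were at 0. The sum was 69.0 to 75.6 CPM untreated and 60.6 to 65.4 CPM treated. Nearly all of it was Runx2 (37.0 and 30.8 CPM) and Sox9 (34.1 and 31.35 CPM).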

How the data were processed

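RNA of differentiated C2C12 cells was sequenced in 6 libraries, 3 untreated and 3 with 1 µM lenvatinib, grouped and numbered by sample title. The authors deposited raw read counts per gene row, not normalized, and a feature length in bases. The labels' protocols name Hisat2 2.0.1 for alignment, and HTSeq 0.6.1 and mm10 appear in the submitters' processing notes. No strand setting or library kit is stated there. Deposited positions differ from mm10, so they are printed as deposited and were not joined to the reference; promoter sequences come from RefSeq on GRCm38.p6, matched by symbol.

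Counts were fitted over all rows with edgeR 4.0.16 in R 4.3.3 (TMM factors, filterByExpr with minimum count 10 and total 15, robust glmQLFit, glmQLFTest), with Benjamini-Hochberg adjustment over 14989 rows and a threshold of 0.05. The log2 fold change SE was derived from the F statistic. The fit was tested on simulated data. The 16 alternatives covered scaling, filters, DESeq2 1.42.0, limma-voom (limma 3.58.1), a replicate block, a threshold of 0.01, estimation without robustness and leaving out each library. Same-numbered libraries were not treated as pairs in the main fit. Replicates differed beyond sampling noise (chi-square per degree of freedom 2.78 to 5.60). Log2 CPM for likeness used a prior count of 2. Members and lists were chosen with earlier results of these data known. From each list the text names the 3 most abundant tested genes and up to 4 called genes with the smallest p; others are marked, and a few genes that this rule picks are not reported here. A nominal floor of 3 counts per library was used only to read low values, and lower counts were kept as deposited. This floor covers only counting error, as PCR copies of a molecule cannot be told apart here.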

Additional observations from a re-analysis of the deposited data

How the results depend on the processing

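The calls of Jun, Junb, Jund, Egr2 and Egr3 kept their direction and stayed past the threshold under all 16 alternatives, and 2 members were called higher and 3 lower under each. Their adjusted p was at most 7.95e-08 for Jun, 3.46e-07 for Junb, 0.000159 for Jund, 0.0443 for Egr2 and 0.000592 for Egr3. The number of called rows ranged from 3049 at a threshold of 0.01 to 4276 with upper quartile factors (3618 to 3797 when 1 library was left out). With the replicate block 4134 rows were called and Jun, Junb and Egr2 changed by 0.45, -0.36 and -0.39. Same-numbered libraries did not deviate together (r = 0.022, -0.078 and -0.004). Such r values cannot show whether those libraries were handled as pairs, and the labels state no pairing. Of the members that did not pass, 2 changed sign: Fos was at 0.003 with limma-voom and, when 1 library was left out, between -0.192 and 0.069 (above 0 without the second lenvatinib or the first or second untreated library), and Egr1 between -0.051 and 0.007 (above 0 without the second untreated library). Of the others that did not pass, Fosl1 lay between -0.338 and -0.124 and Fosl2 between -0.047 and -0.020 when 1 library was left out, the last of each without the first untreated library. The log2 ratio of Jun to Junb differed by 0.769 to 0.855 when 1 library was left out. With no division by length the shares of FOS and JUN counts shifted by 5.17 points for Jun, -7.7 for Junb, 3.56 for Jund and -0.72 for Fosl2, in place of 4.05, -8.7, 5.17 and -0.21; the alternative weights long transcripts more by its construction. Among the related lists, the bZIP genes called lower were 3 in the main fit. They were 2 with upper quartile factors, no filter, DESeq2, the replicate block, a threshold of 0.01, or without the first or second untreated library. Without the third lenvatinib library 1 was called lower. The called regulators of AP-1 proteins were 2, but 1 with a minimum of 5 CPM, which leaves fewer genes tested. Counts of 49 to 85 limit what can be said of Fos and Fosb.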

Other observations

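Some rows of genes that most cells use are listed at or near 0. Map2k7, which encodes a kinase of the JNK pathway, had 0 counts in all 6 libraries, Atf7 was at 0.126 ± 0.0642 and 0.116 ± 0.0723 CPM and Mafg at 0.0990 ± 0.0217 and 0.147 ± 0.221 CPM (SD, n = 3). How such rows arose was not tested, and a row at 0 in this table, Egr4 included, is therefore reported only as listed at 0. Junos, whose span shares 689 bases with that of Jun, differed in the opposite direction to Jun. Its log2 fold change was -0.90 (adjusted p = 0.027, 13 to 31 counts per library).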
